A study of Fragaria hybrid cultivar with 9 samples.

Results

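Big bud petals (PF_D) were compared with young bud petals (PF_L) of the pink-flowered strawberry cultivar Sijihong, the latest and the earliest of its 3 sampled petal stages. The 6 libraries, 3 PF_D and 3 PF_L, were chosen by their stage labels out of 9 in the series. The other 3 come from petals that begin to color (PF_Z), which entered the estimate of the spread and are otherwise named only beside a PF_D or PF_L value. All petals came from untreated plants of this 1 cultivar grown outdoors, a hybrid of Fragaria and Potentilla, and each stage had 3 biological replicates. Whether a replicate was a single plant or a pool is not given in the sources used here. Small RNAs of 18 to 25 nucleotides (nt) were sequenced and matched to known plant miRNAs or predicted as new ones. A predicted sequence carries a name beginning with PC, and whether it comes from a true miRNA hairpin was not checked. The age of a petal and its color change together over these stages and cannot be told apart, and in whole petals fewer cells of a type and less RNA per cell cannot be told apart either.

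Plant miRNAs are cut by Dicer-like enzymes from a folded precursor as a duplex of a strand from its 5' arm (5p) and a strand from its 3' arm (3p). One strand, the guide, is loaded into an Argonaute protein and directs it to complementary mRNAs, while the partner is usually degraded. Conserved families are known in Arabidopsis and other plants for setting organ identity and growth: miR156 acts on SPL and miR172 on AP2 transcription factors, miR396 on growth-regulating factors, and miR390, miR160, miR167 and miR393 on auxin signaling. Small RNAs of 24 nt are mostly a different class, made by another Dicer-like enzyme and known for guiding DNA methylation at repeats, often with an A as first base.

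The sequences that carry the largest differences are shown first, 5' to 3' as the deposited table writes them, with T for U. Capitals mark bases 2 to 8, the seed. In the names, R and L give bases added or missing at the 3' or 5' end relative to the reference miRNA, and ss a substitution. Auxin-related sequences that rose (both miR393 strands and the 3p strand of miR390) or fell (miR390, miR160, and a 3p strand of miR167) were as follows.

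mdm-miR393a_1ss22TC: tCCAAAGGgatcgcattgatcc

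mdm-miR393g: aTCATGCTatccctttggatt

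csi-miR390a-3p_2ss15AG21AC: cGCTATCCatcctgggtttcc

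mdm-miR390a: aAGCTCAGgagggatagcgcc

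ath-miR390a-5p_L+3: aTCAAGCTcaggagggatagcgcc

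mdm-miR160a: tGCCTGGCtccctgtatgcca

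csi-miR160a-3p: gCGTATGAggagccatgcata

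csi-miR167e-3p: gGTCATGCtctgacagcctcact

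Other large rises came from strands of miR166, miR396, miR172, miR171 and miR169 and from 2 predicted sequences without a known family. Mdm-miR396b and mdm-miR396c share 1 seed.

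csi-miR166c-5p_L-1R+1_1ss21GA: gGAATGTTgtctggttcgaaa

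mdm-miR396b: tTCCACAGctttcttgaactg

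mdm-miR396c: tTCCACAGctttcttgaactt

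mdm-MIR396g-p3_1ss5AG: gTTCGAGAaagctgtgaaaaa

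ppe-miR172a-5p_1ss21GA: gTAGCATCatcaagattcaca

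mdm-miR171i_1ss1TC: cGAGCCGAaccaatatcactc

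csi-MIR169i-p3_1: cAGTCACCttggctaacttga

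PC-3p-5481_553: tCAGAGCAtccacaacctctac

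PC-5p-1384_1876: cAGAGTTGtaatatattgata

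The forms of miR159 share 1 seed and differ in their 3' ends alone. They are shown because their direction followed their length.

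mdm-miR159d_R-3: tTTGGATTgaagggagct

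mdm-miR159d_R-1: tTTGGATTgaagggagctct

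mdm-miR159d: tTTGGATTgaagggagctcta

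rco-miR159_R+3: tTTGGATTgaagggagctctattt

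Of the 1660 distinct listed sequences, 1633 had a value above 0 in PF_D or PF_L and 1406 had one at both stages. Values are normalized reads. The reads recovered from the values of the distinct sequences numbered 962207 to 1210766 per PF_D library and 1054730 to 1239681 per PF_L library, and 1 read was worth 1.07 to 1.27 in PF_D and 0.713 to 0.882 in PF_L. By the library totals that the study gives, every PF_D library lost a larger share of its raw reads to the adapter and length filter than any PF_L library and kept fewer valid reads, of which the listed sequences made up a larger share. These quantities move with the stage, and their part in the results was not tested. No small RNA was fixed as a marker of petals, so the tissue label was not checked in the values. MiR2275, known in grasses and other plants for triggering small RNAs in anthers, summed to 13.5 to 18.1 normalized reads in PF_D and 7.94 to 164 in PF_L, where PF_L2 alone stood high. The 4 families that resemble tRNA or rRNA pieces (miR5077, miR6300, miR6478 and miR8175) were above 0 at both stages and summed to 1115 to 1374 in PF_D and 1324 to 2172 in PF_L. Most of that sum was miR6300, and miR5077 alone of the 4 was called, at 82.8, 33.9 and 37.3 in PF_D, against 13.2, 12.8 and 10.7 in PF_L (limma log2 fold change 1.87, adjusted p = 0.009).

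Between the stages, 238 of 1511 tested sequences differed (15.8%), 113 higher in PF_D (7.48%) and 125 lower (8.27%), by limma on log2(value + 1) with a Benjamini-Hochberg adjusted p under 0.05. Log2 fold changes are PF_D over PF_L on that scale, which understates the change of low values, and are given ± SE with 3 libraries a stage. Of 607 known miRNAs tested 98 were higher (16.1%) and 49 lower (8.07%), and of 904 predicted sequences 15 were higher (1.66%) and 76 lower (8.41%). Families and family lists hold known miRNAs only, so the known shares are the closer reference for counts of their members. Libraries of the stages did not overlap for 236 of the called sequences, against 35.9% of all tested. The PF_Z mean lay between those of PF_D and PF_L for 105 of the 113 that rose and for 105 of the 125 that fell. A large gap between PF_D and PF_L makes that position likely, and no share over all tested sequences was taken. Of the called sequences, 47.5% were higher, a split that became 28% of 257 with library totals set equal, 77.2% of 268 with values scaled to the valid reads, and 63.6% of 143 with DESeq2. The median change of the 501 sequences with a mean of at least 5 was -0.16 on the log2 scale as deposited, -0.53 at equal totals and 0.42 on valid reads, so the direction of a small change depends on the scaling. Without PF_L1, PF_L3 or PF_D3 the number of calls was 110, 132 and 153.

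Direction followed sequence length. None of the 652 tested 24-nt sequences rose and 75 fell (11.5%), while 33 of the 165 sequences of 18 to 20 nt rose (20%) and none fell. At 21 nt 65 of 433 rose and 31 fell, and at 22 nt 11 of 172 rose and 9 fell. Among known miRNAs alone, 13.0%, 23.1% and 26.9% rose at 18, 19 and 20 nt, against 20.9% at 21 nt. None of those short ones fell, against 11.6% at 21 nt. For known miRNAs the short lengths thus differed from 21 nt in their falls more than in their rises. Of 59 known miRNAs of 24 nt tested, none rose and 6 fell (10.2%). Known 24-nt miRNAs thus differed from those of 21 nt in their rises and not by more frequent falls. The median log2 change was -0.81 at 24 nt, 0.18 at 21 nt and 0.57 at 20 nt. With 3 libraries a side an exact permutation test of a share cannot go below p = 0.10, which each share named next reached. Reads of 24 nt made up 0.371%, 0.493% and 0.419% of the listed reads in PF_D, against 1.09%, 0.985% and 0.988% in PF_L. Those of 20 nt took 1.88%, 1.53% and 1.67% in PF_D, against 0.810%, 1.09% and 0.851% in PF_L. Neither length overlapped between the stages. Single sequences carried much of both differences: rco-miR159_R+3 -0.315 of the -0.593 points at 24 nt, and mdm-miR394a 0.426 of the 0.778 points at 20 nt.

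**Figure D1:**
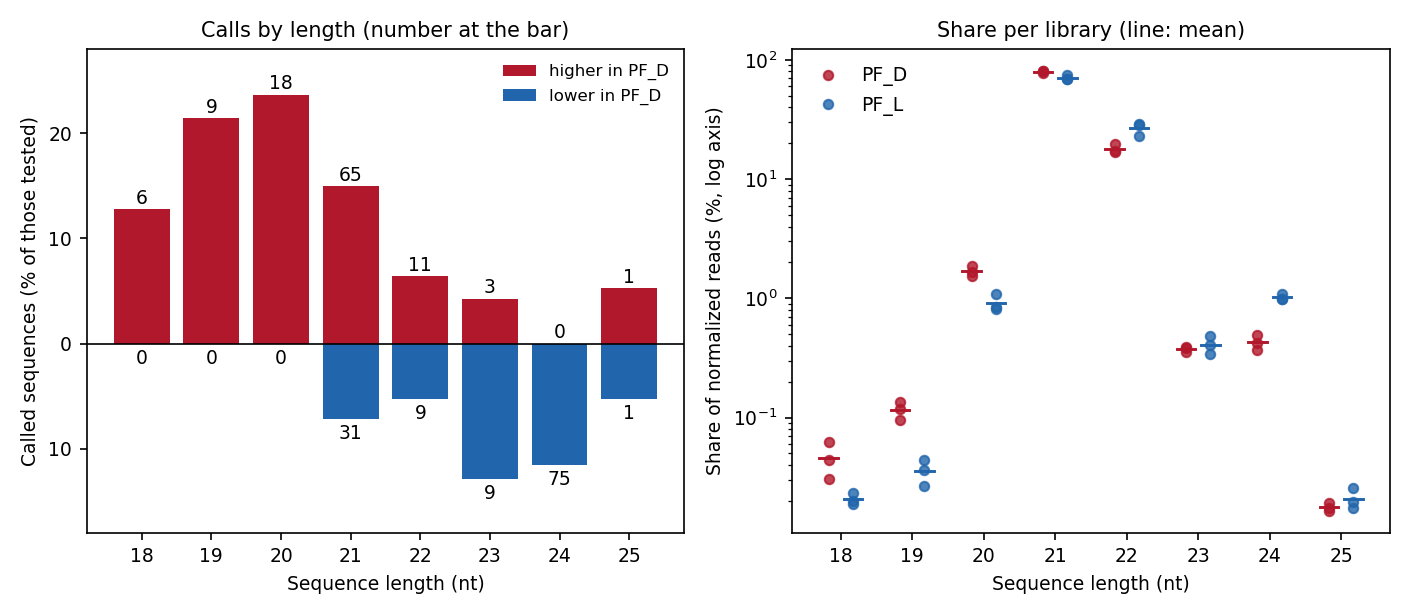
Left, the share of tested sequences of each length (nt) that were called higher (red, upward) or lower (blue, downward) in PF_D than in PF_L, with their number at each bar; right, the share of normalized reads of each length (%, log axis) in each PF_D library (red) and PF_L library (blue), with lines at the means. No 24-nt sequence was called higher and none of 18 to 20 nt was called lower.

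Reads of 21 nt took 79.3% ± 1.51 of the listed reads in PF_D and 70.8% ± 3.38 in PF_L, and those of 22 nt 18% ± 1.60 and 26.7% ± 3.43 (SD, n = 3 libraries each). The 21-nt gain rested on few sequences: mdm-miR171g added 6.35 points, bdi-miR7782-3p_R-4_2ss5-A21TG 6.17 and mdm-miR396b 3.08, while mdm-miR390a took away 1.90. Without the 5 most abundant sequences the differences were 1.07 points at 21 nt and -2.67 at 22 nt, and the stages overlapped for both. The 22-nt loss rested mainly on gra-MIR482-p3_1ss20TG, a form of miR482, a family known for acting on disease resistance genes of the NLR class. It lost 7.08 points of share, yet its level did not pass the test, at 120565, 139015 and 118005 normalized reads in PF_D and 177681, 127151 and 181475 in PF_L (log2 fold change -0.35 ± 0.25, adjusted p = 0.36). PF_L2 lay within the PF_D range. Another 22-nt form, mdm-miR482b_2ss11CT20TC, lost 2.49 points and did not pass either (-0.24, adjusted p = 0.54). Sequences that begin with A took 14.7% ± 0.338 of the reads in PF_D and 11% ± 0.636 in PF_L, with no overlap. Without the 5 most abundant sequences that difference turned to -7.02 percentage points, and bdi-miR7782-3p_R-4_2ss5-A21TG is the one of those 5 that begins with A.

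The 75 sequences of 24 nt that fell were mostly predicted, 69 against 6 with a known name, and 65 of them began with A, as did 81.7% of all listed 24-nt sequences and 16.9% of the other lengths. They fell by 1.04 to 3.78 on the log2 scale, with a median of 1.93. By the arm in their names, known ones included, 36 were 5p and 36 were 3p. In PF_D libraries 397 to 460 of the 700 listed 24-nt sequences had a value above 0, against 600 to 623 in PF_L libraries, and 21 of the 75 were at 0 in all 3 PF_D libraries. Those 21 passed the filter through PF_L and PF_Z alone. Over all lengths 1123 to 1180 sequences were above 0 in PF_D libraries and 1332 to 1382 in PF_L, and PF_D kept fewer valid reads. These counts are therefore no separate support for the fall. PC-3p-89719_57, among the most abundant of them, had 33.1, 38.9 and 25.6 normalized reads in PF_D, against 78.5, 76.3 and 61.4 in PF_L (log2 fold change -1.14 ± 0.30, adjusted p = 0.017). PC-3p-123386_43 had 1.27, 2.26 and 0 in PF_D, against 22.9, 22.8 and 23.9 in PF_L (log2 fold change -3.64 ± 0.50, adjusted p = 7.2e-05). Every PF_D value of both lay under every PF_L value. These 2, like all predicted 24-nt sequences named here, were chosen after their values were seen.

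Some of the 24-nt sequences that fell overlap in sequence and may not be separate measurements. Of the 75, 15 share a run of 12 bases with another and form 4 groups of at most 5 members. The most abundant of these groups is shown, since its members share runs of bases in shifted registers.

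PC-3p-89719_57: aAATGATCggacggctcacggctt

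PC-3p-77875_64: aTGATCGGacggctcacggcttga

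PC-3p-56259_83: aTCGGACGgttcacgacttgatgt

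PC-3p-131686_41: aTCGGACGgttcacggcttgatgc

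PC-3p-226316_25: aCGGCTCAcggcttgatatatgtt

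Their 6 known companions were named as forms of miR159, miR390, miR160, miR5083, miR6266 and miR8674, 4 of them with added end bases. Ath-miR390a-5p_L+3, a miR390 form with 3 added bases at the 5' end, had 5.10, 4.51 and 2.13 normalized reads in PF_D, against 91.7, 52.1 and 54.4 in PF_L (log2 fold change -3.78 ± 0.52, adjusted p = 6.9e-05). The miR160 form mdm-miR160a_L+3, extended at the same end, had 17.2, 16.9 and 20.3 in PF_D, against 47.6, 49.2 and 49.5 in PF_L (log2 fold change -1.38 ± 0.31, adjusted p = 0.006). Both begin with A, their seeds are shifted by the extension, and neither overlapped between the stages. PC-5p-4208_692, a predicted 23-nt sequence, fell as well, with 56.1, 42.9 and 32.0 in PF_D, against 282, 165 and 203 in PF_L (log2 fold change -2.29 ± 0.29, adjusted p = 3.1e-05). The number of 24-nt sequences that fell was 15 without PF_L1, 32 without PF_L3, 43 without PF_D1 and 46 without PF_D2, and it was 36 with values scaled to the valid reads, where 2 rose, and 24 with DESeq2. Without PF_L2 it was 58, and 1 rose. Their median stayed under 0 in each of the 22 alternative settings, between -1.21 and -0.33.

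All 33 short sequences that rose carry known names, 18 of them of 20 nt, 9 of 19 nt and 6 of 18 nt. So do most tested short sequences: 67 of 76 at 20 nt, 39 of 42 at 19 nt and 46 of 47 at 18 nt. Csi-MIR156f-p5_1ss19AT, the most abundant miR156 form, had 3247, 2385 and 2794 normalized reads in PF_D, against 594, 768 and 559 in PF_L (log2 fold change 2.13 ± 0.27, adjusted p = 3.9e-05). Mdm-miR394a, a 20-nt guide known in Arabidopsis for acting on an F-box gene of the shoot meristem and leaf, had 14117, 11793 and 12052 in PF_D, against 4805, 6052 and 5607 in PF_L (log2 fold change 1.21 ± 0.26, adjusted p = 0.004). All PF_D libraries lay above all PF_L libraries for both. The 18-nt ath-miR8175_L-2 and osa-miR5077_L-1_1ss5GA, of families listed as tRNA- or rRNA-like, rose by 2.17 and 1.87 on the log2 scale. The number of short sequences that rose was 13 without PF_L1, 16 without PF_L3, 20 without PF_D1 and 15 without PF_D3, and 16 at equal totals, 52 on valid reads and 18 with DESeq2.

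A ratio within a library does not depend on how libraries are scaled. Each sequence was therefore set against the most abundant sequence with the same 5' end, which left 30 pairs that differ in 3' length alone, a comparison added after the data were seen. The ratio changed in 13 of the 30 (43.3%). Of the 12 shorter variants 6 gained on their lead and none lost, and of the 18 longer variants 6 lost and 1 gained. The 24-nt rco-miR159_R+3 stood at 8.28 ± 1.45 per 1000 lead reads in PF_D and 21.2 ± 2.0 in PF_L, against its lead mdm-miR159d (SD, n = 3 each; log2 ratio change -1.36 ± 0.36 (SE), adjusted p = 0.022). The 20-nt mdm-miR159d_R-1 stood at 5.19 ± 0.668 per 1000 lead reads in PF_D and 3.20 ± 0.341 in PF_L (0.70 ± 0.22 (SE), adjusted p = 0.04) and the 18-nt mdm-miR159d_R-3 at 1.05 ± 0.277 per 1000 lead reads in PF_D and 0.533 ± 0.0226 in PF_L (0.94 ± 0.26 (SE), adjusted p = 0.025). For all 3 the libraries of the stages did not overlap, while mdm-miR159d itself, known with its family for acting on GAMYB factors, did not pass the test (0.32, adjusted p = 0.39).

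Of the 30 ratios 17 did not pass. Those that did included forms of miR162, miR171 and the 5p strand of miR159. Osa-miR162a_R+2, a 23-nt form of miR162, which acts on the Dicer-like gene DCL1, stood at 6.35 ± 0.901 per 1000 lead reads in PF_D and 18.4 ± 2.36 in PF_L (SD, n = 3 each; -1.49 ± 0.25 (SE), adjusted p = 0.0063). Csi-miR171c-3p_R+4, of 25 nt, stood at 0.10 ± 0.00992 per 1000 lead reads in PF_D and 0.502 ± 0.115 in PF_L (-2.27 ± 0.43 (SE), adjusted p = 0.0076). Csi-miR159a-5p_R-2_1ss19AT, 2 bases shorter than its lead, stood at 34.6 ± 6.08 per 1000 lead reads in PF_D and 11.8 ± 0.0970 in PF_L (1.51 ± 0.34 (SE), adjusted p = 0.017). The longer variant that gained was gma-miR6300_R+6_2, of a family listed as tRNA- or rRNA-like. The miR162 and miR171 variants kept their call without any 1 library, but the number of calls was 4 without PF_L1, 6 without PF_D2 and 2 without PF_L3, PF_D1 or PF_D3.

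**Figure D2:**
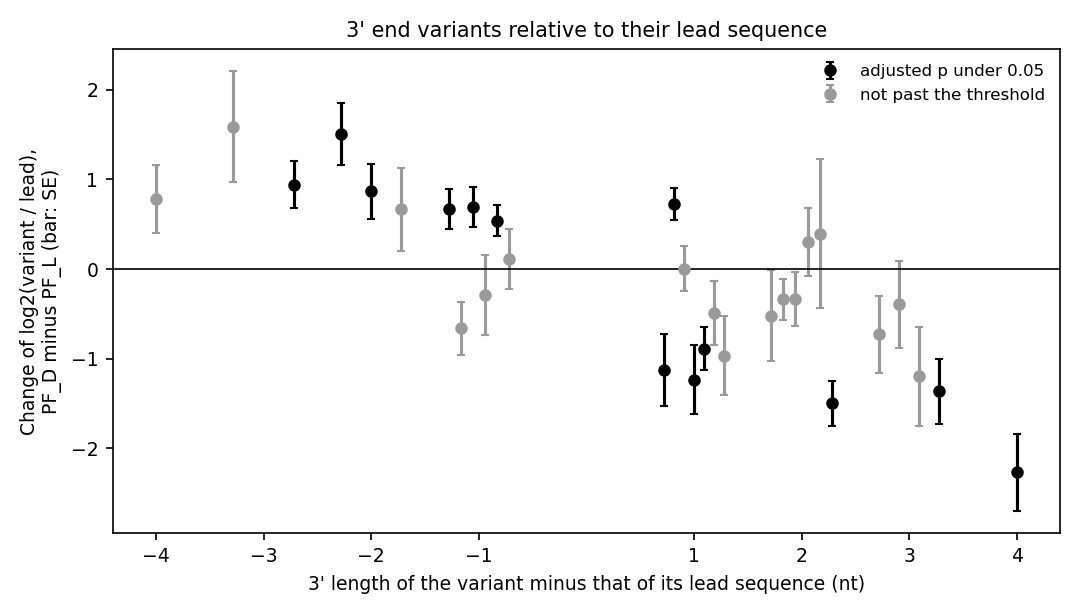
Change between PF_D and PF_L in the log2 ratio of a 3' end variant to its lead sequence (points, bars SE) against the difference in 3' length in nt, for 30 pairs. Variants called by the test are black: 6 of the 12 shorter ones gained and 6 of the 18 longer ones lost, with 1 longer one that gained.

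Among single sequences, the largest rise was of one not seen at all in young buds. PC-3p-5481_553, a predicted 22-nt sequence, had 155, 257 and 277 normalized reads in PF_D, against 0 in each PF_L library, at least 95.0-fold higher in PF_D when each PF_L library is set to 3 reads, a limit that covers counting error only. In PF_Z it had 7.61, 15.2 and 14.7. It passed the test under each of the 22 alternatives run for sequences. PC-5p-1384_1876 had 499.5, 788 and 752 in PF_D, against 30.0, 74.9 and 58.6 in PF_L (log2 fold change 3.68 ± 0.31, adjusted p = 3.4e-07). The stages did not overlap for either sequence, and neither is listed under a known family. Of the 15 predicted sequences that rose, 13 have 21 nt, among them PC-3p-1636_1596 with 366, 446 and 558 in PF_D, against 102, 88.5 and 63.5 in PF_L (2.42, adjusted p = 4.0e-05), and PC-5p-46233_97 with 17.8, 36.1 and 73.5 in PF_D, against 0 in each PF_L library.

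**Figure D3:**
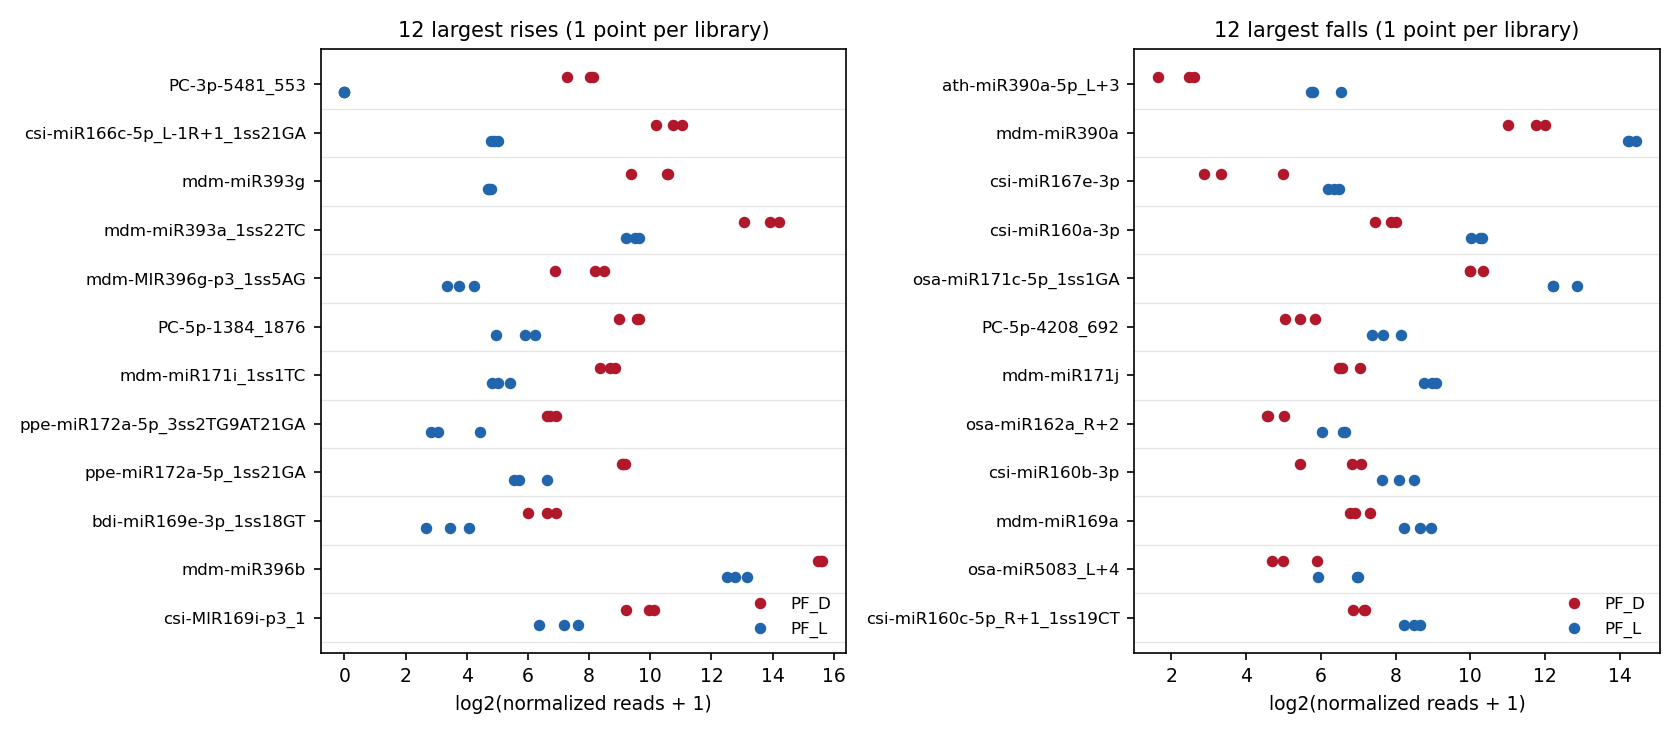
Level of the 12 sequences with the largest rises (left) and the 12 with the largest falls (right) as log2(normalized reads + 1), 1 point per library, PF_D in red above PF_L in blue. Rows were chosen among sequences that do not overlap between the stages, and PC-3p-5481_553 is at 0 in all 3 PF_L libraries.

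Among auxin-related families miR393 rose and miR390 and miR160 fell, while 9 of the 40 tested sequences of the 4 auxin families rose and 9 fell, against 7.48% and 8.27% of all sequences. Among known sequences alone these shares were 16.1% and 8.07%. MiR393 acts on the auxin receptors of the TIR1 and AFB group, and its total was 15584 ± 5743 normalized reads in PF_D and 734 ± 106 in PF_L (SD, n = 3 each; log2 fold change 4.34, adjusted p = 6.9e-07). Its guide mdm-miR393a_1ss22TC had 8556, 15415 and 18866 in PF_D, against 722, 794 and 589 in PF_L (log2 fold change 4.28 ± 0.27, adjusted p = 5.6e-09). Its partner strand mdm-miR393g had 661, 1518 and 1490.0 in PF_D, against 26.5, 25 and 25.6 in PF_L (log2 fold change 5.42 ± 0.31, adjusted p = 1.2e-09). PF_D1 was the lowest of the PF_D libraries for both and still lay far above every PF_L library. Of the 7 miR393 sequences tested 6 rose, 4 of them with the seed CCAAAGG.

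MiR390, which triggers small interfering RNAs against the auxin response factors ARF3 and ARF4, fell in its guide and rose in its partner. Mdm-miR390a had 4064, 2044 and 3463 normalized reads in PF_D, against 22073, 19422 and 19071 in PF_L (log2 fold change -2.72 ± 0.26, adjusted p = 1.3e-06). Csi-miR390a-3p_2ss15AG21AC had 1668, 1468 and 1910.0 in PF_D, against 772, 678 and 426 in PF_L (log2 fold change 1.46 ± 0.28, adjusted p = 0.0018). Neither overlapped between the stages, and in PF_Z the guide stood at 8606, 12475 and 9843. MiR160, which acts on ARF10, ARF16 and ARF17, fell by 0.99 on the log2 scale in total, with 6 of its 15 tested sequences lower and 1, the scarce tae-MIR160-p3_1ss5CT, higher. Over all known sequences 8.07% were lower and 16.1% higher. The call of the miR160 total was lost under at least 1 of the scalings by equal totals, median of ratios and valid reads. Csi-miR160a-3p, its partner strand, had 255, 173 and 233 in PF_D, against 1232, 1270.5 and 1039 in PF_L (log2 fold change -2.43 ± 0.23, adjusted p = 1.3e-06). Csi-miR160b-3p and csi-miR160c-5p_R+1_1ss19CT fell too, by 1.62 and 1.38 on the log2 scale. The guide mdm-miR160a fell less (-0.87, adjusted p = 0.012) and did not pass without PF_L1, PF_L3 or PF_D2. The miR167 guide mdm-miR167b, for ARF6 and ARF8, did not pass the test (0.18, adjusted p = 0.71), whereas the 3p sequence csi-miR167e-3p had 30.6, 9.03 and 6.39 in PF_D, against 89.1, 80.6 and 72.6 in PF_L (log2 fold change -2.62 ± 0.45, adjusted p = 8.4e-04).

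Families of growth and organ boundaries moved in both directions, with 3 of 6 higher and 1 lower, against 18.7% and 11.5% of all families tested, while 18 of their 96 tested sequences rose and 12 fell. The shares were 7.48% and 8.27% over all tested sequences and 16.1% and 8.07% over known ones. MiR396, which acts on growth-regulating factors, rose in total (1.20, adjusted p = 0.0011). Its form mdm-miR396b had 50427, 45769 and 48775 normalized reads in PF_D, against 5843, 9080.4 and 6971 in PF_L (log2 fold change 2.75 ± 0.27, adjusted p = 1.7e-06). Mdm-miR396c, with the same seed, had 20748, 17872 and 18687 in PF_D, against 7348, 10341 and 10972 in PF_L (log2 fold change 1.02 ± 0.25, adjusted p = 0.012) and lost its call without PF_L1. The stages did not overlap for either form, although the first rose more than the second on this scale, a difference that was not tested. Csi-miR396f-3p_1ss20GC, the most abundant 3p strand, went the other way with a log2 fold change of -0.99, adjusted p = 0.013. Osa-miR396e-5p fell further, to 0, 1.13 and 0 in PF_D, against 7.94, 30.7 and 12.4 in PF_L (-3.60, adjusted p = 0.001). The partner strand mdm-MIR396g-p3_1ss5AG had 116, 355 and 292 in PF_D, against 17.6, 9.27 and 12.4 in PF_L (log2 fold change 4.07 ± 0.47, adjusted p = 1.2e-05).

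MiR171, which acts on GRAS genes of the HAM group, split by sequence, with 6 higher and 5 lower of 28 tested. Over all tested sequences 7.48% were higher and 8.27% lower, and over known ones 16.1% and 8.07%. Mdm-miR171g, listed under 3 names, had 182772, 201181 and 192051 normalized reads in PF_D, against 82596, 85172 and 85148 in PF_L (log2 fold change 1.19 ± 0.24, adjusted p = 0.0033). Mdm-miR171i_1ss1TC had 327, 411 and 462 in PF_D, against 27.3, 41.4 and 31.3 in PF_L (log2 fold change 3.55 ± 0.28, adjusted p = 1.1e-07), so both rose without overlap. Mdm-miR171j, with another seed, had 133, 88.0 and 94.3 in PF_D, against 499, 435 and 544 in PF_L (log2 fold change -2.24 ± 0.25, adjusted p = 1.1e-05). The 5p strand osa-miR171c-5p_1ss1GA had 1293, 1018 and 1026 in PF_D, against 7460.0, 4735 and 4758 in PF_L (log2 fold change -2.32 ± 0.23, adjusted p = 2.2e-06). PF_L1 was the highest of the PF_L libraries for that strand. These sequences are shown because members of 1 family moved apart.

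mdm-miR171g: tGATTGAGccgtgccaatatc

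mdm-miR171j: tTGAGCCGcgccaatatcact

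osa-miR171c-5p_1ss1GA: aGATATTGgtgcggttcaatc

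MiR166, which acts on class III HD-ZIP factors of organ polarity, had 5p strands called in both directions while its guide did not pass, with 2 of its 19 tested sequences higher and 2 lower. Neither count is far from the shares of all tested sequences, 7.48% higher and 8.27% lower, or of known ones, 16.1% and 8.07%. Csi-miR166c-5p_L-1R+1_1ss21GA had 1159.6, 1713 and 2080.5 normalized reads in PF_D, against 31.8, 28.5 and 26.4 in PF_L (log2 fold change 5.75 ± 0.26, adjusted p = 1.1e-10). Mdm-miR166a had 124100.1, 126752 and 125233 in PF_D and 110153, 87634 and 110164 in PF_L and did not pass the test (0.30, adjusted p = 0.43). The first lay 57.1 times higher in PF_D by its means, with PF_Z at 118, 105 and 111. The 5p strand csi-miR166a-5p had 2370.2, 2264 and 2174 in PF_D, against 4049, 3436 and 4174 in PF_L (-0.77, adjusted p = 0.019). With arms carried over from relatives, as described for the arm balance, the 5p reads of miR166 summed to 4140.5 ± 367 in PF_D and 4067 ± 412 in PF_L (SD, n = 3 each), and the balance of its arms did not pass (-0.27, adjusted p = 0.54). MiR164, which acts on NAC factors of organ boundaries, fell in total by 0.83 on the log2 scale (10843, 6975 and 7519 in PF_D, against 17917, 13006 and 13608 in PF_L; adjusted p = 0.019), a call lost without PF_L1, PF_D2 or PF_D3 and on valid reads (-0.23). Its lead mdm-miR164b fell by 0.84 (adjusted p = 0.025), a call lost without PF_L1, PF_L3, PF_D2 or PF_D3. MiR319, which acts on TCP factors, did not pass in total (0.53, adjusted p = 0.19), though its 20-nt form mdm-miR319a_R-1 rose (1.10, adjusted p = 0.014; not called without PF_L1, PF_D1 or PF_D3).

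In phase change and flowering families, 13 of 48 tested sequences rose and 3 fell, against 7.48% and 8.27% of all sequences and 16.1% and 8.07% of known ones. Only 1 of the 4 families tested was called, against 30.2% of all families. MiR156 rose in total to 4685 ± 746 normalized reads in PF_D, against 1519 ± 222 in PF_L (SD, n = 3 each; adjusted p = 3.5e-04). Of its 25 tested sequences 9 rose and 1, the 3p strand mtr-miR156i-3p_L-1_2ss14TA22TG, fell (-1.37, adjusted p = 0.0011). MiR172 gave 3058, 2756 and 2945 in PF_D and 1891, 1959.7 and 1586 in PF_L and missed the threshold (0.69, adjusted p = 0.056), as did miR535 (0.79, adjusted p = 0.065), although neither overlapped. Within miR172 the 5p strand ppe-miR172a-5p_1ss21GA had 555, 537 and 571 in PF_D, against 45.9, 98.4 and 51.1 in PF_L (log2 fold change 3.15 ± 0.32, adjusted p = 2.9e-06), as did ppe-miR172a-5p_3ss2TG9AT21GA (3.29, adjusted p = 1.6e-05), while the guide mdm-miR172a_R+1 had 1642, 1567 and 1645 in PF_D and 1182, 1401 and 906 in PF_L (0.50, adjusted p = 0.20). Of the MYB regulators miR159, miR828 and miR858, none passed as a family, at log2 fold changes of 0.31, 0.54 and 0.20. Their 41 tested sequences gave 7 higher and 1 lower, all of them miR159. Mdm-miR828a had 734, 693 and 622 in PF_D and 365, 655 and 307 in PF_L (0.70, adjusted p = 0.19).

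MiR169, which acts on NF-YA subunits, rose to 4009.5, 7808 and 8105 normalized reads in PF_D, against 2055, 2118 and 2035 in PF_L (log2 fold change 1.61 ± 0.27, adjusted p = 9.5e-04), with 11 of its 18 tested sequences higher and 1 lower. The shares were 7.48% higher and 8.27% lower over all tested sequences, and 16.1% and 8.07% over known ones. For the miR169 total PF_D1 was the lowest PF_D library and still above every PF_L library. The rise included 3p strands such as csi-MIR169i-p3_1, at 590.0, 1001 and 1102 in PF_D, against 197, 145 and 81.2 in PF_L (log2 fold change 2.70 ± 0.32, adjusted p = 1.8e-05), and bdi-miR169e-3p_1ss18GT (3.13, adjusted p = 1.4e-04), and shortened guides such as ppe-miR169f_R-2 (2.33, adjusted p = 5.0e-05). Csi-MIR169i-p3_2, another listed sequence, carries the same value in all 9 libraries and is not a separate measurement. The member that fell, mdm-miR169a, had 109.6, 119.6 and 159 in PF_D, against 298, 490.1 and 405 in PF_L (log2 fold change -1.60 ± 0.27, adjusted p = 8.4e-04).

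Nutrient families rose where they passed. In the sulfate and phosphate list 9 of 24 tested sequences rose and none fell, against 7.48% and 8.27% of all sequences and 16.1% and 8.07% of known ones. MiR395, which acts on sulfate transporters and ATP sulfurylases, had 528, 1038 and 1003 in PF_D, against 266, 284 and 235 in PF_L (log2 fold change 1.65 ± 0.30, adjusted p = 0.0017). MiR399, which acts on the phosphate regulator PHO2, had 112, 172 and 203 in PF_D, against 69.7, 58.5 and 53.6 in PF_L (log2 fold change 1.37 ± 0.31, adjusted p = 0.0063). Both were above every PF_L library, with PF_D1 the lowest of its stage. Their sequences mdm-miR395a (1.38, adjusted p = 0.0066) and ptc-MIR399j-p5_2ss4CT22GT (2.07, adjusted p = 0.0023) were among those called. Of the copper families miR397, which acts on laccases, rose to 2236, 1977 and 1640.3 in PF_D, against 1098, 1077 and 1019 in PF_L (0.86, adjusted p = 0.012). That call was lost without PF_L3 and at equal totals (0.45). MiR398, which acts on copper/zinc superoxide dismutases, did not pass in total (-0.32, adjusted p = 0.46), and over the copper list 5 of 23 tested sequences rose and 1 fell. Among them were ppe-miR397 (0.84, adjusted p = 0.021; not called without PF_L1, PF_L3, PF_D1 or PF_D2) and hbr-miR398_1ss3AT (0.97, adjusted p = 0.019; not called without PF_L3 or PF_D1).

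The 4 families listed as common in Rosaceae (miR477, miR530, miR1511 and miR7782) all rose. Their roles in petals are not known well enough to state. MiR530 had 2024, 2015 and 2472 normalized reads in PF_D, against 497, 482 and 463 in PF_L (log2 fold change 2.17 ± 0.29, adjusted p = 3.5e-04). MiR1511 had 773, 886 and 983 in PF_D, against 198, 269 and 224 in PF_L (log2 fold change 1.93 ± 0.27, adjusted p = 3.5e-04). MiR7782, a single sequence whose name comes from a grass, had 159152, 160983 and 172845 in PF_D, against 53966, 65335 and 77207 in PF_L (log2 fold change 1.34 ± 0.23, adjusted p = 0.0011). None of these 3 overlapped between the stages, and each was also called when library totals were set equal, scaled by the median of ratios or scaled to valid reads. With substituted sequences left out, miR530 and miR1511 did not pass, at log2 fold changes of 1.24 and 0.03. MiR477 (1.12, adjusted p = 0.022) lost its call without PF_L2, PF_D2 or PF_D3.

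mdm-miR530a_2ss18TC20GC: tGCATTTGcacctgcacctct

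mdm-MIR1511-p5_1ss1TA: aGTGGTATcaggactatgtta

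bdi-miR7782-3p_R-4_2ss5-A21TG: aCCTAGCTctgataccatgtg

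Outside the lists, miR7125 had 438, 404 and 453 in PF_D, against 90.9, 152 and 97.3 in PF_L (1.96, adjusted p = 0.0063), and miR5225 had 344, 189.6 and 253 in PF_D, against 832, 478 and 510.1 in PF_L (-1.20, adjusted p = 0.01; not called without PF_L1). In total, 42 of 139 tested families differed (30.2%), 26 higher and 16 lower, and 25 of them did so under every one of those 3 scalings, 15 higher and 10 lower. The families of silencing genes gave 0 of 3 higher and 1 lower: miR403, which acts on AGO2, had 0 in each PF_D library, against 1.76, 2.85 and 1.65 in PF_L, under or near 3 reads per library. MiR168, for AGO1, had 24736, 23885 and 27323 in PF_D and 25484, 14944 and 14727 in PF_L and did not pass (0.51, adjusted p = 0.18), with PF_L1 within the PF_D range. In the NLR regulators 1 of 5 families rose, the scarce miR1507, called in none of the fits without PF_L1, PF_L3 or PF_D3, while miR482 did not pass (-0.32, adjusted p = 0.31). Of the 61 tested sequences of that list 3 rose and 5 fell, against 7.48% and 8.27% of all sequences and 16.1% and 8.07% of known ones. Without PF_L1, PF_L2 or PF_L3 the number of called families was 26, 26 and 27, and 11 of 33 calls by edgeR and 12 of 27 by DESeq2 were higher, against 26 of 42 here.

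**Figure D4:**
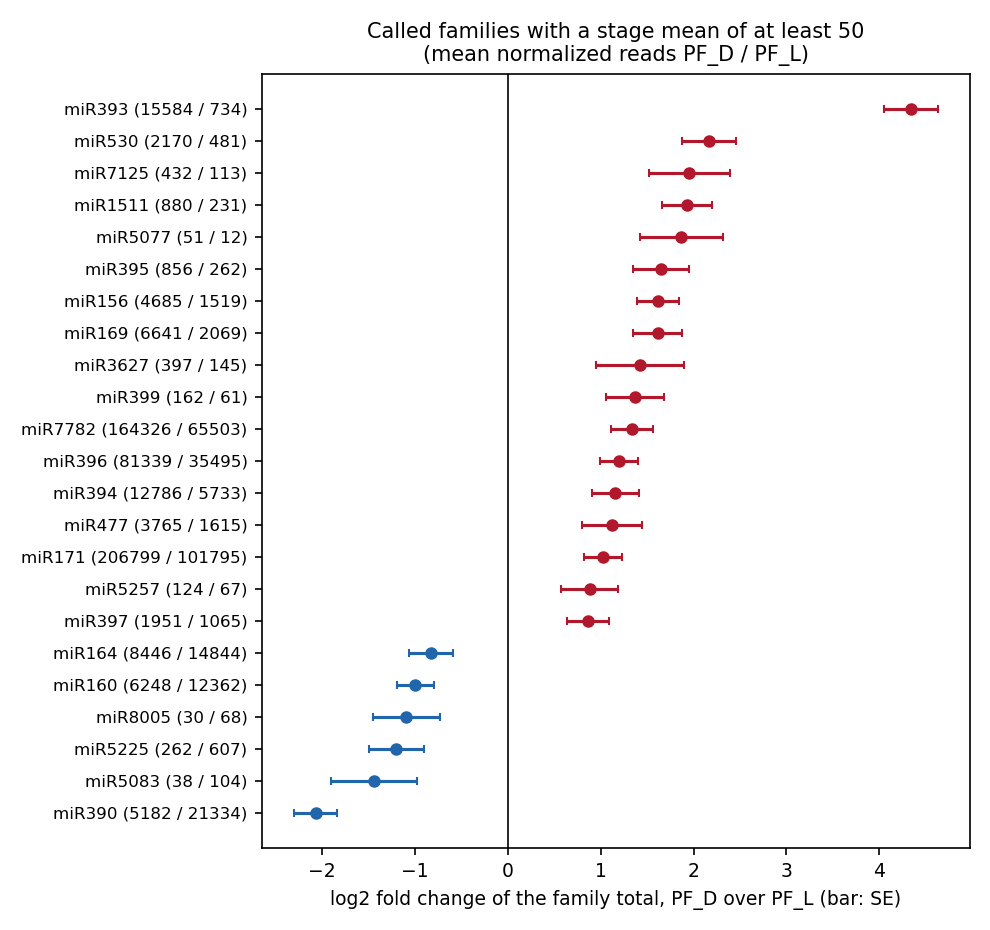
Log2 fold change of the family total, PF_D over PF_L (points, bars SE), for the 23 called families with a mean of at least 50 normalized reads at 1 stage, with both means beside the name. In it 17 families are higher in PF_D, led by miR393, and 6 lower, led by miR390.

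Several of the families that fell were scarce and carry names from other plant groups. Of 17 tested families with Brassicaceae names alone, 5 fell and 1 rose. Of 16 with grass names alone 3 fell and 2 rose, and of the other 106 families 8 fell and 23 rose. MiR1885 had 0, 0 and 3.20 normalized reads in PF_D, against 9.70, 15 and 14.8 in PF_L, and miR158 had 0 in each PF_D library, against 3.53, 8.56 and 6.6 in PF_L. These values rest on few reads.

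The balance of the 2 arms was tested as the log2 ratio of 5p to 3p reads of a family, which does not depend on the scaling. With arms read from names it changed in 8 of 28 families (28.6%), the 3p side gaining in miR390, miR171, miR164 and miR858 and the 5p side in miR394, miR156, miR399 and miR398. Many names carry no arm, among them the guides mdm-miR390a and mdm-miR396b. When 92 of 241 such sequences took the arm of a relative with which they share 16 bases, an alternative added after the data were seen, 7 of 31 families changed (22.6%). The 5p share of miR390 was then 60.7% ± 6.83 in PF_D and 95.0% ± 1.03 in PF_L (SD, n = 3 each; log2 ratio change -3.62 ± 0.27 (SE), adjusted p = 6.9e-06), and that of miR171 2.45% ± 0.366 in PF_D and 9.89% ± 1.81 in PF_L (-2.12 ± 0.26 (SE), adjusted p = 2.1e-04). In the other direction, the 5p share of miR396 was 83.5% ± 0.551 in PF_D and 48.3% ± 10.5 in PF_L (2.44 ± 0.34 (SE), adjusted p = 3.6e-04) and that of miR156 86.0% ± 2.10 in PF_D and 61.4% ± 5.36 in PF_L (1.95 ± 0.35 (SE), adjusted p = 0.0016). No share of these 4 families overlapped between the stages.

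MiR394, miR160 and miR398 also gained on the 5p side in this version, while miR164, miR399 and miR858 did not pass it. From the names alone, the number of families was 5 without PF_L1, PF_D1 or PF_D3, and 3 of 7 where each arm had a mean of at least 50. In 11 pairs of a 5p and a 3p sequence the strands were laid against each other without gaps, to see whether they could have come from 1 duplex. Mdm-miR390a and csi-miR390a-3p_2ss15AG21AC paired at 18 of 19 facing bases, G-U pairs included, with 2 bases over at each 3' end. Csi-miR166c-5p_L-1R+1_1ss21GA and mdm-miR166a paired at 17 of 19, and mdm-miR396b and mdm-MIR396g-p3_1ss5AG at 18 of 19, both with the same overhangs. In miR390 and miR394 the strands of such a pair moved in opposite directions and both passed the test. So did osa-miR171c-5p_1ss1GA and mdm-miR171g, which paired at 20 of 20 facing bases without an overhang. The other 5p partner tried for mdm-miR171g, osa-miR171d-5p_2ss12CT21AG, paired at 17 of 19 with 2 bases over at each 3' end and did not pass, at 4090.5, 3255 and 3573 normalized reads in PF_D and 4315, 3386 and 4400.0 in PF_L (-0.14, adjusted p = 0.69).

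mdm-miR166a: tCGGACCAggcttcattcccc

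mdm-miR394a: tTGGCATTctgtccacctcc

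gma-miR394b-3p_R+1_1ss15TC: aGGTGGGCatactgccaactg

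**Figure D5:**
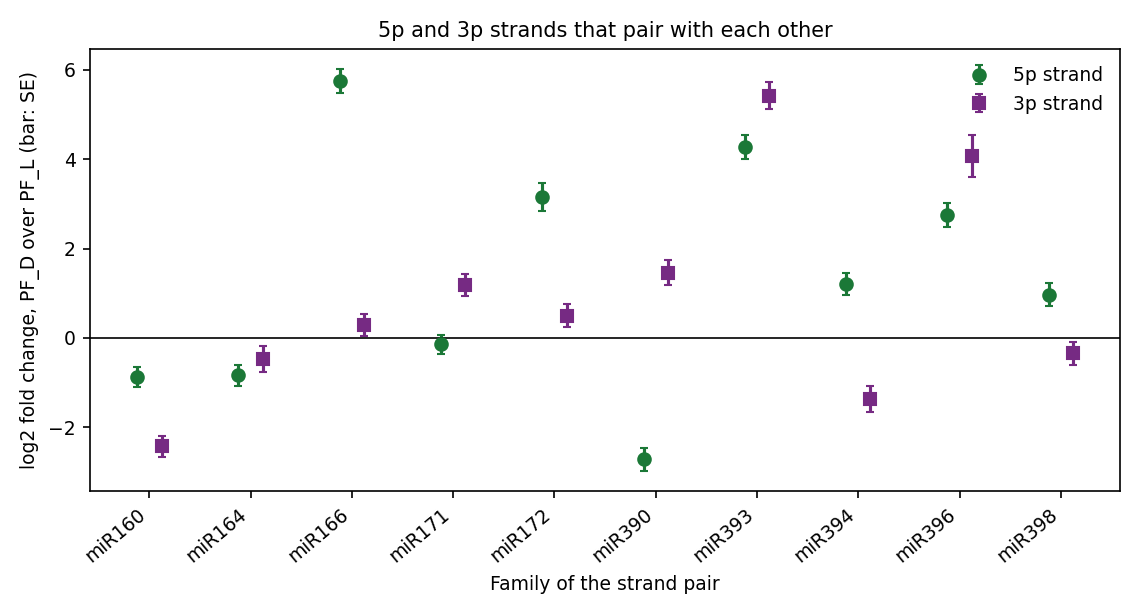
Log2 fold change, PF_D over PF_L, of a 5p strand (green circle) and a 3p strand (purple square) of the same family that pair with each other, with SE bars, for 10 families. The strands of miR390, miR394, miR398 and miR171 (here with osa-miR171d-5p_2ss12CT21AG) lie on opposite sides of 0. Of these, only in miR390 and miR394 did both strands pass the test. The 5p strand of miR166 stands at 5.75 beside a 3p strand at 0.30, and both strands of miR393 are above 4.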

How the data were processed

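Small RNA was sequenced from 3 PF_D, 3 PF_L and 3 PF_Z petal samples, grouped by their stage labels. Per the labels, reads were cleaned of adapters, low-complexity reads and common RNA families with ACGT101-miR, after TruSeq small RNA library preparation. The deposited table holds 1 normalized signal per listed miRNA and library, made by the authors, and the formula is not given in the sources used here.

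Of 1876 lines 173 were full repeats, and the 1703 names left hold 1660 distinct sequences, each counted once. Within a library 69.6% to 71.9% of the values in PF_D and 69.7% to 70.6% in PF_L were whole multiples of 1 step (tolerance 0.01 reads), and 98.5% to 98.9% over both stages whole multiples of 0.5 steps. Multiples, rounded, served as recovered reads in alternative count tests. A value of 3 reads, the limit that a count of 0 allows, is 3.20 to 3.82 in PF_D and 2.14 to 2.65 in PF_L, for counting error only.

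Sequences above 0 in at least 3 libraries were tested on log2(value + 1) with limma 3.58.1 (trend, Benjamini-Hochberg adjustment over all tested) in R 4.3.3, with all 9 libraries in 1 fit and the contrast PF_D minus PF_L. Every adjusted p in the report is from limma. Families are sums over the sequences of 1 miR number, and arm balance and end variants were fitted in the same way as log2 ratios. Shares of reads were compared by two-sided exact permutation tests. On simulated data with known changes for the sequence comparison of 1495 sequences, 27% of 2-fold and 73% of 4-fold changes were recovered and 6 unchanged sequences were called. The simulated libraries were given the real normalized totals, on average 1253778 in PF_D and 942777 in PF_L. Folds were set relative to these totals, so an unchanged sequence stood higher in PF_D on the tested scale.

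The alternatives were edgeR 4.0.16 and DESeq2 1.42.0 on recovered reads, other scalings (equal totals, median of ratios, the library totals of valid reads that the study gives), pseudocounts, filters, substituted sequences left out, a replicate block and each library left out. Members and lists were chosen with earlier results of these data known. Named are the 12 largest rises and the 12 largest falls whose libraries did not overlap and whose higher stage averaged 50 or more, the 10 most abundant sequences, each listed family with its lead, the lead of each arm where arm balance was called, and the 3 largest contributors to each length class over 1% of reads. End variants, partner strands, scarce families and predicted sequences named beyond this were chosen after their values were seen. Python 3.11.15 with pandas 2.3.3, scipy 1.17.1 and matplotlib 3.10.9 was used for tables, tests of shares and plots.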

Additional observations from a re-analysis of the deposited data

How the results depend on the processing

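The number of called sequences was 238. It was 143 with DESeq2 and between 110 and 271 without single libraries, and PF_L1 (110), PF_L3 (132) and PF_D3 (153) moved it most. Called families numbered 42, against 27 with DESeq2, 26 with substituted sequences left out, and 26 to 47 without single libraries, where PF_L1 and PF_L2 gave 26 and PF_L3 gave 27. The 8 families with a changed arm balance were 3 when each arm had to average at least 50 and 5 to 10 without single libraries, and with arms carried over from relatives 7 became 6 to 10. The 13 end variants were 2 to 14 without single libraries and 19 at a pseudocount of 5. The 75 falls at 24 nt were 36 on valid reads, 24 with DESeq2 and 15 to 86 without single libraries. The 33 rises at 18 to 20 nt were 16 at equal totals, 52 on valid reads, 18 with DESeq2 and 13 to 41 without single libraries. The cause of these shifts was not tested.

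Differences in read share without single libraries ran from 0.683 to 0.863 points at 20 nt, 7.35 to 10.4 at 21 nt, -10.7 to -7.63 at 22 nt and -0.626 to -0.559 at 24 nt. Without the 5 most abundant sequences they were 2.91 points at 20 nt, 1.07 at 21 nt, -2.67 at 22 nt and -1.69 at 24 nt, with two-sided exact permutation p = 0.10, 0.80, 0.50 and 0.10, and the differences by first base were -7.02 points for A, 0.020 for C and 8.94 for T, and by arm -2.32 for 3p and 2.97 for names without an arm, each with the opposite sign to that with all sequences.

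The log2 fold changes that changed sign belong to results that were not called, and the cause was not tested. At equal totals log2 fold changes were -0.23 for ath-MIR858b-p5, -0.092 for mdm-miR159d, -0.12 for mdm-miR166a and -0.23 for mdm-miR167b, and -0.10, -0.14, -0.21 and -0.21 for the families miR159, miR166, miR167 and miR858. On valid reads they were 0.12 for csi-miR164a-3p_2ss10TC11TC, 0.25 for gra-MIR482-p3_1ss20TG, 0.25 for mdm-miR398b_1ss1TC, 0.36 for mdm-miR482b_2ss11CT20TC, 0.45 for osa-miR171d-5p_2ss12CT21AG, 0.025 for ppe-miR398a-3p_1ss20TG and 0.39 for rco-miR162, and 0.37, 0.28, 0.28 and 0.018 for the families miR162, miR398, miR482 and miR2275. With edgeR the families miR159, miR166, miR167, miR168, miR172, miR319, miR828 and miR858 stood at -0.39, -0.44, -0.49, -0.23, -0.0093, -0.17, -0.22 and -0.48. With DESeq2 miR159, miR166, miR167, miR168, miR319, miR828 and miR858 stood at -0.26, -0.31, -0.37, -0.11, -0.054, -0.075 and -0.36. Without single libraries miR2275 ran from -1.27 to 0.84 and csi-MIR2275a-p5_2ss9CT21TC from -0.97 to 0.24, both highest without PF_L2, while miR858 ran from -0.058 to 0.42 and ath-MIR858b-p5 from -0.10 to 0.41, both lowest without PF_D1. For the 70 named sequences 1443 of 1538 alternative values kept direction and side of the threshold, and for the 57 families 951 of 1155. Of those 1155 family values 144, in 30 families, lost a call without changing sign. Among them, equal totals, the edgeR and DESeq2 scalings ended the family call of miR397, and DESeq2 that of miR403.

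Replicate numbers did not pair the samples: deviations of same-numbered PF_D and PF_L libraries correlated at -0.01, -0.01 and -0.10. With the replicate number as a block, 248 sequences, 47 families, 8 arm balances, 9 with carried arms, 10 end variants, 79 falls at 24 nt and 34 rises at 18 to 20 nt were called. Values near 3 reads limit what the scarce 24-nt sequences and families can show.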

Other observations

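Between the 2 stages alone, 61 sequences had a value above 0 only in PF_D and 166 only in PF_L. Of the 61, 31 have 18 to 20 nt and 7 have 24 nt, and 45 carry known names. Of the 166, 22 have 18 to 20 nt and 89 have 24 nt, and 71 carry known names. In the whole list of 1660 sequences, 62, 53 and 93 have 18, 19 and 20 nt, 700 have 24 nt, and 696 carry known names. Most of these rest on few reads, since 5 of the 61 and 26 of the 166 averaged more than 3 reads at their stage, 19 of those 26 with 24 nt. Reads of 24 nt took 8.48% ± 1.37 of the predicted reads in PF_D and 16.5% ± 1.93 in PF_L (SD, n = 3 libraries each). Distinct sequences can carry equal values in all 9 libraries, as 13 of them in 6 sets do.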
